A study of Mus musculus with 16 samples.

Results

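The 8 genes described here, Atp8b5, Gria3, Sec14l5, 2410089E03Rik, Ddias, Exoc4, Aatk and Rcan2, were picked by symbol for large changes after diethylnitrosamine (DEN) in the livers of 6-month-old mice. They are 8 of 47719 genes with counts and 8 of the 15684 genes with enough counts to test. In 6-month-old livers, 6 of them were higher on both days after DEN and 2, Aatk and Rcan2, were lower. Because these values chose the genes, every 6-month difference below is a description with no test, and no numeric threshold was part of the choice. In 1-month-old livers, which the rule did not use, Atp8b5 rose 5.74-fold at day 2 and was the 1 gene that passed the test, of 7 with enough counts in these libraries.

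RNA was sequenced from livers of wild type C57BL/6 male mice of both ages. Controls were untreated and are labelled time point 0, and treated mice received 1 intraperitoneal dose of DEN, given in mg/kg by the labels (25 mg/kg) and per g of body weight by the methods, and were killed 2 or 6 days later. Each age had 2 control libraries, 3 day 2 libraries and 3 day 6 libraries, and each library was a pool of RNA from 3 mice, so the spread and the p-values below are those between pools. The younger age is 3-4 weeks in the characteristics and 1 month in the protocol, and is called 1 month here. No untreated libraries of days 2 and 6 were analysed here, so in the younger mice growth over these days and DEN cannot be told apart.

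DEN is a nitrosamine that cytochrome P450 enzymes of hepatocytes turn into an alkylating agent, which leaves adducts on DNA and leads to strand breaks and to p53 signaling. The 8 genes belong to different families. Atp8b5 encodes a P4-ATPase, a pump that moves phospholipids across a membrane and is best known from testis, and Sec14l5 encodes a protein of the SEC14 lipid-transfer family. Gria3 is a subunit of the AMPA glutamate receptor of neurons, and Aatk, also called lemur tyrosine kinase 1, is a kinase studied mainly in neurons. 2410089E03Rik is the symbol in the deposited table for Cplane1, whose product takes part in building primary cilia. Ddias encodes a suppressor of apoptosis that follows DNA damage, Exoc4 a subunit of the exocyst that tethers secretory vesicles to the plasma membrane, and Rcan2 a regulator of the phosphatase calcineurin.

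The genes lie on 8 chromosomes (GRCm38). Atp8b5 (ENSMUSG00000028457) was at chr4:43267159-43373833 on the plus strand and Gria3 (ENSMUSG00000001986) at chrX:41400854-41678601 on the plus strand. Sec14l5 (ENSMUSG00000091712) was at chr16:5147109-5183934 and 2410089E03Rik (ENSMUSG00000039801) at chr15:8169106-8271158, both on the plus strand. Exoc4 (ENSMUSG00000029763) was at chr6:33249085-33973979 on the plus strand, and its span of 724.9 kb was longer than that of 99.6% of the tested genes. The remaining 3 were Ddias (ENSMUSG00000030641) at chr7:92857525-92874247 on the minus strand, Aatk (ENSMUSG00000025375) at chr11:120007313-120047167 on the minus strand and Rcan2 (ENSMUSG00000039601) at chr17:43801851-44039516 on the plus strand.

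Promoter windows from RefSeq (GRCm38.p6), each running from 250 bases before to 50 bases after an annotated start, were held for 7 of the 8 genes, all but Gria3, in 12 windows. They were searched on both strands for a p53 decamer, the E-box CACGTG, the AP-1 motif TGANTCA, the CCAAT box, the GC box GGGCGG and the TATA box TATAAA. The windows of Exoc4, Sec14l5 and Atp8b5 are shown because the first pair held the p53 decamer and the last belongs to the gene with the clearest change at both ages. Capitals mark the decamer in Exoc4 (chr6:33248878-33249177, plus strand) and Sec14l5 (chr16:5146859-5147158, plus strand) and the GC boxes in Atp8b5 (chr4:43266909-43267208, plus strand).
Exoc4: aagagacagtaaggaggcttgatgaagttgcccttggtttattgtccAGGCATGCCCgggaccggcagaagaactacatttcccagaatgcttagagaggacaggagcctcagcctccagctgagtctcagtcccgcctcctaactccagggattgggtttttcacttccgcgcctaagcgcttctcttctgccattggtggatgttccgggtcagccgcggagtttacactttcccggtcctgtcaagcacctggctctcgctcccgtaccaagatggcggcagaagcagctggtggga
Sec14l5: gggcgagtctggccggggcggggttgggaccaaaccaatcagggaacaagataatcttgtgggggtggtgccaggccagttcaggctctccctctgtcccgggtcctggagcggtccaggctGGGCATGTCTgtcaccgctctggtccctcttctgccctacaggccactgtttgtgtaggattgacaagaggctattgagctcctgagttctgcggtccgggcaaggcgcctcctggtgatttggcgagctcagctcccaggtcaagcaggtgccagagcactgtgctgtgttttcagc
Atp8b5: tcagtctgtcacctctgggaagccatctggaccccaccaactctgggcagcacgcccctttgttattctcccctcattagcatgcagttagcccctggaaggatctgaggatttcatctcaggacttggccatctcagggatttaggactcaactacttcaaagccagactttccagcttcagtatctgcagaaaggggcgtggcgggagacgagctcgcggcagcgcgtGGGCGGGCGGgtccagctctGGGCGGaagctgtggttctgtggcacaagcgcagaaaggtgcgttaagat

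The decamer AGGCATGCCC began at position -203 from the Exoc4 start and GGGCATGTCT at position -128 from the Sec14l5 start. A match to this motif was found in 8.36% of all 32851 promoter windows of the same length, and none was found in the windows of the other 5 genes. The Atp8b5 window held 3 GC boxes, of which 2 shared bases, and the 2410089E03Rik window held 5. The Sec14l5 window held 1, and overlapping windows of Aatk held 2 and 1. GC boxes were in 35.7% of all windows. The 2410089E03Rik window had 29 CpG and a GC content of 72.7%, against medians of 7 CpG and 52.7% over all windows. Ddias, with 29 CpG and no GC box, Exoc4, Sec14l5 and 1 window of Rcan2 held CCAAT boxes, as did 37.4% of all windows, and 1 window of Aatk held both a CCAAT box and an E-box, the latter found in 7.15% of windows. A further window of Rcan2 held an AP-1 match, found in 7.81% of windows. TATAAA, present in 13.6% of windows, was in none of the 12. A match describes these letters only.

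The libraries held 19039330 to 34459774 counts (median 26125036.5), and levels are CPM, a gene's counts relative to the scaled total of its library. Hepatocyte markers were abundant in every library (7 of 7 genes, summed CPM 19245 to 34984). In 1-month-old mice, 3 libraries stood apart in genes of the daily clock. A score was taken as the average log2 CPM over 9 clock genes in phase with Dbp, less the average over 5 in phase with Arntl. It was -2.19 in day 6 replicate 2, -1.72 in day 2 replicate 3 and -0.77 in control replicate 2, against -0.03 to 4.93 in the remaining libraries. Hepatocyte markers at 6 months were lower after DEN (21720 to 26734 at day 6 and 19245 to 24809 at day 2) than in controls (26902 to 29090). The 5 mesothelium markers at 6 months were higher (6.57 to 15.3 at day 2 and 9.33 to 11.8 at day 6, against 4.01 to 5.18), and at 1 month they ran from 8.10 to 50.1. At 1 month, day 6 libraries had lower summed markers than controls for stellate cells (207 to 241 against 247 to 288) and for neurons and Schwann cells (12.8 to 18.05 against 21.5 to 24.7), and day 2 libraries had lower neutrophil markers (2.76 to 3.83 against 3.95 to 4.42). The part of these differences in the values below was not tested. In bulk RNA, fewer cells of a type and less RNA per cell cannot be told apart.

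Of the genes that were higher after DEN, Atp8b5 showed the largest change among those with counts in the controls. Its level in 6-month-old controls was 1.35 and 1.02 CPM, and it was 13.6, 16.998 and 15.3 CPM at day 2 and 15.96, 12.4 and 15.1 CPM at day 6. All 6 treated libraries lay far above both controls, and the days overlapped with each other. On the log2 scale the day 2 change was 3.70 ± 0.36 (SE) and the day 6 change 3.62 ± 0.35, with a difference between the days of -0.07 (95% interval -0.62 to 0.47). Of all tested genes, 0.319% passed at day 2 and 0.249% at day 6 in 6-month-old mice, and all 8 genes were among them, from which nothing is read because these contrasts chose the genes. Male germ cell markers, of which 1 of 7 had enough counts to test and Tnp1 was at 0 in all libraries, overlapped between the 6-month groups, with summed CPM of 8.33 to 11.7 in controls, 8.99 to 10.6 at day 2 and 7.95 to 9.94 at day 6.

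Ddias, the suppressor of damage-induced apoptosis, was at 1.91 and 2.08 CPM in 6-month-old controls. It was at 11.6, 14.9 and 14.3 CPM at day 2 and at 11.1, 9.08 and 11.97 CPM at day 6. Every treated library was above both controls, with log2 changes of 2.76 ± 0.29 on day 2 and 2.42 ± 0.29 on day 6.

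2410089E03Rik, the cilium gene, differed strongly between controls and treated libraries. Its levels were 9.80 and 7.48 CPM in 6-month-old controls, 68.2, 53.1 and 48.6 CPM at day 2 and 84.5, 59.3 and 73.7 CPM at day 6. The day 2 and day 6 libraries overlapped with each other and not with the controls. The day 2 change was 2.72 ± 0.31 and the day 6 change 3.07 ± 0.32 on the log2 scale, and the difference between the days was 0.36 with a 95% interval from -0.17 to 0.88.

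Gria3, the AMPA receptor subunit, was at 2.47 and 2.65 CPM in 6-month-old controls and at 21.8, 17.4 and 18.9 CPM at day 2. At day 6 it was at 25.1, 19.3 and 24.9 CPM. All treated libraries lay above both controls, with log2 fold changes of 2.91 ± 0.27 and 3.17 ± 0.27. Markers of neurons and Schwann cells, of which 3 of 8 had enough counts to test, overlapped between the groups. Their summed CPM in 6-month-old livers was 14.8 to 22.6 in controls, 11.3 to 16.6 at day 2 and 12.1 to 18.5 at day 6.

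Exoc4, the vesicle-tethering subunit, had the smallest log2 change of the 8 on both days at 6 months. It was at 28.9 and 30.9 CPM in 6-month-old controls, 66.7, 59.5 and 68.7 CPM at day 2 and 64.6, 61.7 and 62.2 CPM at day 6. All treated libraries lay above both controls, and the log2 change was 1.12 ± 0.13 on day 2 and 1.07 ± 0.13 on day 6.

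Sec14l5, the lipid-transfer gene, was read in no control library of either age. In 6-month-old mice it had 33, 26 and 25 counts at day 2 and 28, 7 and 20 counts at day 6, or 0.983 ± 0.135 CPM (SD, n = 3) and 0.656 ± 0.374 CPM. These means were 18.5 and 12.4 times the limit that a count of 0 allows in controls, taken as 3 counts over both control libraries. The counting error and spread of the treated libraries are not in these ratios. Day 6 replicate 2 was the lowest of the treated libraries at 0.353 CPM.

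Aatk and Rcan2 were lower than both controls in every treated 6-month-old library. Aatk, the lemur kinase, was at 13.4 and 13.7 CPM in controls, 2.72, 3.17 and 2.52 CPM at day 2 and 3.45, 2.93 and 2.75 CPM at day 6. The treated libraries lay close together and far under the controls, with log2 changes of -2.28 ± 0.21 on day 2 and -2.16 ± 0.21 on day 6. Rcan2, the calcineurin regulator, was at 6.72 and 7.77 CPM in controls, 2.28, 1.63 and 2.66 CPM at day 2 and 2.53, 1.41 and 1.40 CPM at day 6. Its log2 change was -1.72 ± 0.29 on day 2 and -2.02 ± 0.30 on day 6.

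**Figure D1:**
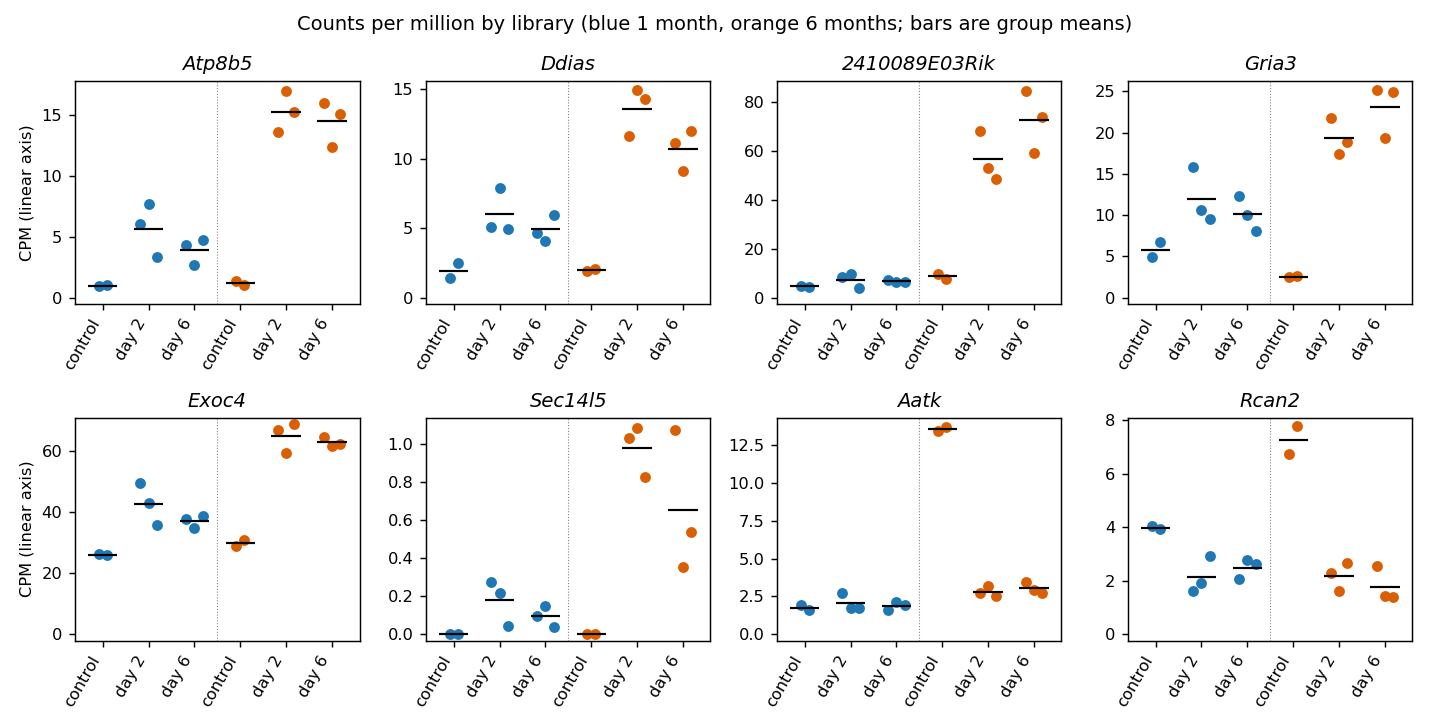
Level of each of the 8 genes in every library, in CPM on a linear axis, for 1-month-old (blue) and 6-month-old (orange) livers in control, day 2 and day 6 groups; points are libraries and bars are group means. At 6 months the treated libraries of 6 genes sit above both controls and those of Aatk and Rcan2 below them. At 1 month the treated points lie closer to the controls. Those of Aatk on both days and of 2410089E03Rik at day 2 overlap with the controls there.

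Of the 8 genes, 0 had day 2 and day 6 libraries that did not overlap at 6 months, beside 3.49% of tested genes higher at day 6 without overlap and 3.37% lower. The differences between day 6 and day 2 ran from -0.57 (Sec14l5) to 0.36 (2410089E03Rik) on the log2 scale, and the 95% interval of each of the 8 included 0. Between same-numbered libraries of the days, 2410089E03Rik and Gria3 were higher at day 6 in 3 of 3 and Ddias was lower in 3 of 3. The log2 differences were 0.37, 0.26 and -0.33 when the number was a block. The labels give no meaning to the numbers, and the share over all tested genes is not given. No trend between the days is therefore read from these pairs. The median size of the 8 changes against control was 2.74 at day 2 and 2.75 at day 6 on the log2 scale, beside 0.14 and 0.13 over all tested genes. It was the same with or without the Sec14l5 controls set at 3 counts. These medians follow from the choice of the genes.

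In 1-month-old livers at day 2, Atp8b5 was at 6.07, 7.66 and 3.31 CPM, against 0.921 and 1.05 CPM in controls. Every treated library lay above both controls, and replicate 3 was the lowest of them. Its log2 fold change was 2.52 ± 0.35 (adjusted p = 0.0352, edgeR quasi-likelihood, Benjamini-Hochberg), higher in 3 of 3 libraries. Of all tested genes 0.0191% passed this comparison, which is 3 genes. The call was lost without control replicate 1 (adjusted p = 0.278), control replicate 2 (0.285) or day 2 replicate 2 (0.123) of the 1-month-old mice, while the log2 fold change stayed between 2.24 and 2.80 when any 1 of the 16 libraries was left out. The call uses a spread shared with the 6-month libraries, and it was also lost with only the 8 libraries of this age (adjusted p = 0.376), with only the groups compared (0.697) and with a replicate block (0.131).

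The other genes did not pass at day 2 in the younger mice. Ddias was at 5.11, 7.88 and 4.97 CPM against 1.42 and 2.48 CPM in controls, a log2 fold change of 1.61 with a 95% interval of 1.01 to 2.22 (adjusted p = 0.200). Exoc4 was at 49.4, 42.9 and 35.7 CPM against 26.3 and 25.8 CPM, a difference of 0.71 with an interval of 0.43 to 1.00 (adjusted p = 0.249). All 3 treated libraries of both genes lay above the controls. Both passed when day 2 replicate 1 was left out (adjusted p = 0.0862 for Ddias and 0.0987 for Exoc4) or when day 2 replicate 3 was left out (0.0808 and 0.0323). Over all genes, the number passing ran from 0 to 53 on leaving out any 1 library, against 3 with all libraries. It is not given for these fits alone, so nothing is read from these calls. Gria3 was at 15.8, 10.6 and 9.54 CPM against 4.87 and 6.76 CPM, a difference of 1.04 with an interval of 0.52 to 1.56 (adjusted p = 0.335), and its treated libraries did not overlap with the controls.

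In 1-month-old livers 2410089E03Rik overlapped with its controls at day 2, and Sec14l5 was near the limit of detection. 2410089E03Rik was at 8.60, 9.66 and 3.88 CPM at day 2 against 4.83 and 4.32 CPM in controls, and the third library lay below both controls (log2 difference 0.69, interval 0.04 to 1.34, adjusted p = 0.695). Sec14l5 had 6, 6 and 1 counts at day 2 and 2, 4 and 1 counts at day 6, against 0 in both controls. Its mean CPM was 3.32 and 1.76 times the level of 3 counts over both control libraries. That level covers the counting error of the controls only. With 13 and 7 treated counts in total, no lower bound on the fold change is given. Sec14l5 had too few counts to test in the 1-month libraries alone, so it has no test here and is left out of the counts of genes at 1 month. Rcan2 was at 1.61, 1.93 and 2.92 CPM at day 2 against 4.03 and 3.94 CPM, lower in 3 of 3 libraries (-0.89, interval -1.53 to -0.24, adjusted p = 0.619). Aatk was at 2.71, 1.75 and 1.74 CPM against 1.92 and 1.60 CPM, and the groups overlapped (0.23, interval -0.27 to 0.73, adjusted p = 0.837).

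On day 6 in the younger mice, 0 of the 7 testable genes passed edgeR's test, as did 0% of all tested genes. Of the 7, 5 had an unadjusted p under 0.05 (2.72% of all tested genes). By DESeq2, 2 of the 7 passed, Atp8b5 and Ddias, beside 19 over all genes. Atp8b5 was at 4.32, 2.71 and 4.76 CPM (1.98, interval 1.23 to 2.73, adjusted p = 0.569) and passed when day 2 replicate 3 was left out of the shared estimate of the spread (adjusted p = 0.0852). Over all genes, 0 to 1 passed at day 6 on leaving out any 1 library. Ddias was at 4.65, 4.10 and 5.98 CPM (1.32, interval 0.72 to 1.93, adjusted p = 0.606). Every treated library of both genes was above the controls. Gria3 at 12.3, 10.1 and 8.10 CPM, Exoc4 at 37.8, 34.7 and 38.8 CPM and 2410089E03Rik at 7.39, 6.24 and 6.41 CPM were also above both controls in 3 of 3 libraries, with log2 differences of 0.80, 0.51 and 0.54. Rcan2 was at 2.06, 2.78 and 2.63 CPM, below both controls (-0.67), and Aatk at 1.63, 2.11 and 1.97 CPM overlapped with them (0.12).

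Libraries that did not overlap with the controls were found for 4 higher genes and 1 lower gene of the 7 at day 2 (7.96% and 8.77% of all tested genes) and for 5 higher and 1 lower at day 6 (7.09% and 7.26%) in 1-month-old mice. At 6 months, 6 of the 8 genes were higher and 2 lower without overlap on each day, beside 10.8% and 11.1% of tested genes at day 2 and 9.53% and 9.97% at day 6. On day 2 in the younger mice, 6 of the 7 had an unadjusted p under 0.05 (7.16% of tested genes). DESeq2 called 4, namely Atp8b5, Ddias, Exoc4 and Gria3, beside 86 over all genes. Taking the mean of both days against the 1-month-old controls, Atp8b5 passed at 2.25 ± 0.33 (adjusted p = 0.0902, with 0.0128% of tested genes passing), and this call was lost on leaving out any library other than day 2 replicates 2 and 3 and day 6 replicate 2 of the 1-month-old mice (adjusted p 0.113 to 0.681 without the others). Ddias and Exoc4 passed for this mean without day 2 replicate 3 of the 1-month-old mice (adjusted p = 0.0863 and 0.0758), against adjusted p = 0.241 and 0.385 with all libraries. Over all genes, the number passing for this mean ran from 0 to 13 on leaving out any 1 library, against 2 with all libraries. Between day 6 and day 2 at 1 month, 0 genes of the 7 passed edgeR's test (0.00638% of tested genes did) and 0 had an unadjusted p under 0.05 (5.06% of tested genes). DESeq2 called 0 of the 7, beside 31 over all genes. The differences ran from -0.54 for Atp8b5 to 0.21 for Rcan2.

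**Figure D2:**
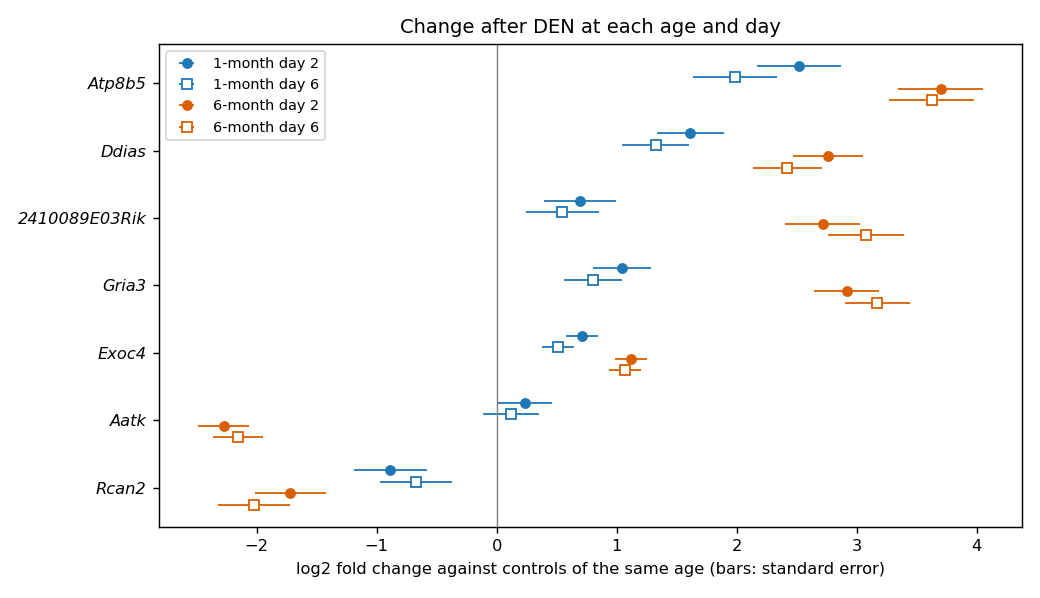
Log2 fold change against controls of the same age for 7 of the genes on days 2 (filled circles) and 6 (open squares) at 1 month (blue) and 6 months (orange), with bars of 1 standard error; Sec14l5 is left out because its controls had no counts. The 6-month values run from -2.28 for Aatk to 3.70 for Atp8b5, and the 1-month values lie nearer to 0 for every gene shown.

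The changes at both ages are set side by side with no test, since the 6-month libraries chose the genes and each pair of days shares its controls. The 6-month change at day 2 exceeded the 1-month change by 1.18 ± 0.48 (SE) for Atp8b5, 1.87 ± 0.34 for Gria3, 2.02 ± 0.42 for 2410089E03Rik, 1.15 ± 0.38 for Ddias and 0.41 ± 0.18 for Exoc4 on the log2 scale. At day 6 the same differences were 1.64, 2.37, 2.53, 1.099 and 0.56. For the lower genes, the 6-month change was further below 0 by 2.51 for Aatk and 0.83 for Rcan2 at day 2, that is -2.51 ± 0.32 and -0.83 ± 0.43 (95% interval of Rcan2 -1.75 to 0.08). At day 6 the differences were -2.28 ± 0.32 for Aatk and -1.35 ± 0.43 for Rcan2 (interval of Rcan2 -2.27 to -0.43). For Aatk this came with a control level that was itself different between the ages, as described next.

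Control levels of several of the genes differed with age. Aatk was 7.72-fold higher in 6-month-old controls, at 13.6 ± 0.188 CPM (SD, n = 2) against 1.76 ± 0.227 CPM at 1 month, and its level in treated 6-month-old livers was 2.81 ± 0.334 CPM at day 2 and 3.04 ± 0.366 CPM at day 6. The treated 6-month-old livers thus lay between the controls of the 2 ages and nearer to the 1-month-old level. Rcan2 was 1.82-fold higher in 6-month-old controls, at 7.24 ± 0.738 against 3.98 ± 0.0602 CPM, and after DEN it lay at 2.15 to 2.49 CPM at 1 month and at 1.78 to 2.19 CPM at 6 months in group means. Gria3 was lower in the older controls, at 2.56 ± 0.121 against 5.82 ± 1.34 CPM, and 2410089E03Rik was higher, at 8.64 ± 1.64 against 4.57 ± 0.365 CPM. Atp8b5 and Ddias overlapped between the control ages, at 1.19 and 0.987 CPM and at 2.00 and 1.95 CPM, and Exoc4 differed by 0.20 on the log2 scale with an interval from -0.10 to 0.51. These control differences carry no test, because the 6-month controls entered the choice of the genes.

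**Figure D3:**
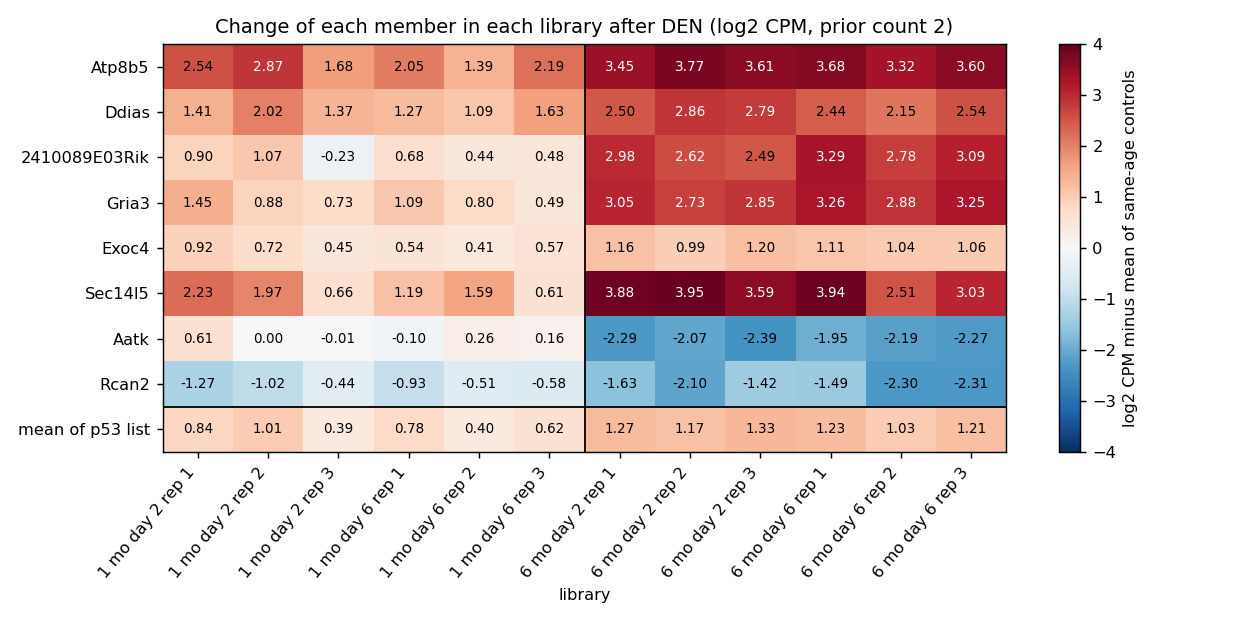
Change of each gene in each treated library as log2 CPM (prior count 2) minus the mean of the controls of the same age, with libraries in columns and genes in rows, and the mean of 31 p53 target genes in the last row. Day 2 replicate 3 at 1 month has the lowest value of Atp8b5, Ddias, Exoc4, Gria3, 2410089E03Rik and Sec14l5 among the day 2 libraries, and its p53 mean is 0.39 against 0.84 and 1.01 in the other 2.

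Within the 1-month-old groups the genes varied by library. Among the day 2 libraries, replicate 3 was the lowest for all 6 genes that were higher after DEN and the nearest to the controls for Rcan2. This library also had the lower clock score given above, -1.72 against 4.93 and 4.07 in the other 2, and the lowest mean change of the p53 list, 0.39 against 0.84 and 1.01 on the log2 scale. The 3 libraries of lowest clock score include control replicate 2, so leaving them out leaves 1 control library at 1 month. The log2 fold change was then 2.197 for Ddias at day 2 and 2.30 for Atp8b5 at day 6. With all libraries these were 1.61 and 1.98. The control left out had the higher Ddias level (2.48 against 1.42 CPM), and its loss and the clock score cannot be told apart here. With the clock score in the model, Ddias (adjusted p = 0.0994) and Exoc4 (0.0866) passed at day 2 besides Atp8b5. Over all genes 15 passed in that model, against 3 without the score. The treated 6-month libraries were more even in the p53 list, with mean changes from 1.03 to 1.33. Their clock scores were not even. Day 2 replicate 3 at 6 months had a score of -0.03, against 4.05 and 3.14 in replicates 1 and 2. Its p53 mean was 1.33, against 1.27 and 1.17. A link between clock score and response was not tested.

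Levels per kb of exon put the genes on 1 scale. In 6-month-old controls, Exoc4 had the highest level at 2.37 ± 0.113 CPM per kb, followed by Aatk at 1.90 ± 0.0262 and Rcan2 at 1.66 ± 0.169. 2410089E03Rik at 0.660 ± 0.1254 and Ddias at 0.539 ± 0.0310 did not differ beyond their spread, and Gria3 at 0.260 ± 0.0123, Atp8b5 at 0.184 ± 0.0360 and Sec14l5 at 0 came last. At day 6 in the same mice the order was led by 2410089E03Rik at 5.54 ± 0.967 CPM per kb and Exoc4 at 4.97 ± 0.122, which overlapped within their SD. Ddias at 2.90 ± 0.401, Gria3 at 2.34 ± 0.334 and Atp8b5 at 2.24 ± 0.287 followed, each overlapping with the next, and Aatk at 0.425 ± 0.0512 and Rcan2 at 0.408 ± 0.149 overlapped near the end. Sec14l5 was last in every group, at 0.171 ± 0.0235 CPM per kb at its highest.

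Genes related to the described ones were read beside the share of all tested genes. Of 69 tested genes in 7 lists of family members and partners, 0 passed edgeR's test against control at either age or day (unadjusted p under 0.05 for 4 and 0 genes at days 2 and 6 at 1 month and for 2 and 1 at 6 months, 0 called by DESeq2). Of all tested genes, 0.0191% and 0% passed at 1 month and 0.319% and 0.249% at 6 months, and 7.16%, 2.72%, 4.01% and 2.99% had an unadjusted p under 0.05, so nothing particular to these lists is read from their counts. Among 13 other P4-ATPases and their CDC50 subunits, Tmem30a and Atp9a had log2 differences of -0.15 and 0.17 at day 2 in 6-month-old mice, where Atp8b5 was at 3.70. Atp11a, a further pump of this family, was higher in 6-month-old than in 1-month-old controls (1.99 ± 0.32, adjusted p = 0.00671) and was named after its value was seen. As the share of all tested genes passing between the control ages is not given here, nothing is read from this call. Among 8 other exocyst subunits, Exoc7, Exoc3 and Exoc5 were at 0.18, -0.01 and -0.02 where Exoc4 was at 1.12. The described genes were chosen for large 6-month changes, so nothing is read from their distance to these relatives.

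Other glutamate receptor genes were low, as only 6 others of 28 listed had enough counts to test. The most abundant of them, Grik5, a kainate receptor subunit, was at 8.08 CPM in 6-month-old controls and had a difference of 0.06 ± 0.26 at day 2, and Grid1 and Shisa9 were at -0.08 and 0.90. Of 23 genes of the CPLANE complex and the ciliary transition zone, Inpp5e, Arl13b and Fuz were at -0.02, 0.10 and 0.02 at day 2 where 2410089E03Rik was at 2.72. The 5 tested SEC14-like and related lipid-transfer genes included Sec14l2, Ttpa and Sec14l4, which had 677, 602 and 185 CPM in 6-month-old controls and differences of -0.30, -0.17 and -0.08. Beside Aatk at -2.28, Lmtk2, Cdk5 and Cdk5r1 were at 0.12, 0.07 and -0.70. Beside Rcan2 at -1.72, the calcineurin subunit genes Ppp3r1 and Ppp3ca were at -0.01 and -0.14 on the log2 scale. Nfatc3, a further gene of the calcineurin list, was at 0.06. Here too the choice of the described genes by 6-month changes means that nothing is read from these distances.

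**Figure D4:**
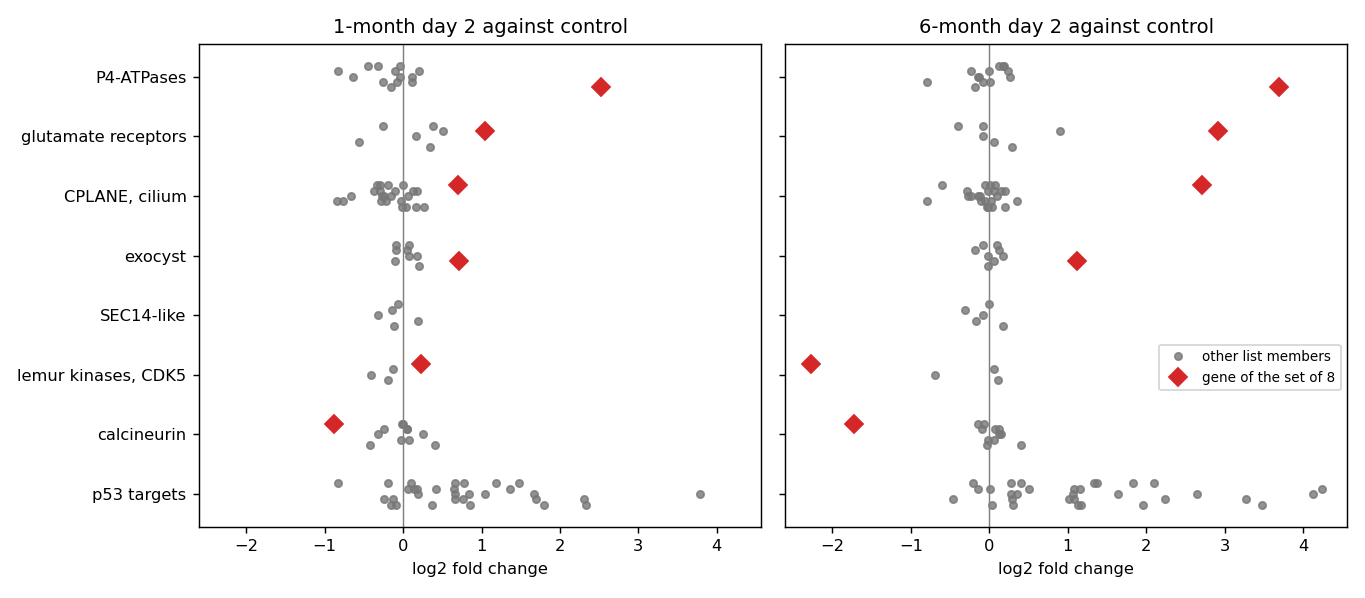
Log2 fold change at day 2 against controls at 1 month (left) and 6 months (right) for the described genes (red diamonds) and the other tested genes of each list (grey points); Sec14l5 is left out because its controls had no counts. Ddias has no list of relatives. In the 6-month panel the 6 diamonds lie outside the range of the grey points of their own row. These points span -0.80 to 0.90 over the 7 family lists, and the p53 list spans -0.47 to 4.24. The described genes were chosen for large 6-month changes, so nothing is read from their place in this panel.

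A list of 31 p53 target genes held none of the 8. It was written with earlier results of these data known, so its counts and changes are a description only. In 6-month-old mice, 11 of the 31 rose at day 2 and 10 at day 6 in edgeR, and 0 fell. In edgeR, 0.319% and 0.249% of all tested genes passed on these days. DESeq2 called 17 and 15 of the 31. Its number over all genes at 6 months is not given here, so nothing is read from these DESeq2 counts. At 1 month Ddit4l, an inhibitor of mTOR signaling, was the 1 gene of this list that passed edgeR's test at day 2 (2.30 ± 0.32, adjusted p = 0.0352). Of the list, 15 had an unadjusted p under 0.05 and DESeq2 called 9. At day 6, 0 passed, 11 had an unadjusted p under 0.05 and DESeq2 called 3. Over all genes at 1 month, edgeR called 3 and 0 at days 2 and 6 and DESeq2 called 86 and 19. An unadjusted p under 0.05 was found for 7.16% and 2.72% of tested genes at 1 month and 4.01% and 2.99% at 6 months. The list's median change was 0.66 and 0.44 at days 2 and 6 at 1 month and 1.08 and 0.87 at 6 months, beside -0.01 and -0.01 and 0.00 and 0.00 over all tested genes. In a list of 24 cell division genes, 0 passed on either day at either age (unadjusted p under 0.05 for 1 gene at each of days 2 and 6 at 1 month, 1 at day 2 and 0 at day 6 at 6 months, 0 called by DESeq2), and Pcna, Mcm6 and Rrm2, the most abundant, were at -0.13, -0.52 and -0.39 on day 2 in the older mice. All 24 were below 0 in that comparison, from -1.80 to -0.13 with a median of -0.84, and the median was 0.17 at day 6. Between day 6 and day 2 at 6 months their median was 1.08, beside 0.00 over all tested genes, and 0 passed by edgeR or DESeq2. An unadjusted p under 0.05 was found for 14 of them. The share over all tested genes is not given for this comparison, so nothing is read from that count.

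The genes whose levels over the 16 libraries were most like those of each gene were found by the root-mean-square (RMS) difference of log2 CPM, each gene centred on its own mean, among 13222 or 13223 tested genes with official symbols. For Atp8b5 they were Ddit4l (0.24) and Eda2r, a receptor of the tumor necrosis factor family (0.38). For Ddias they were Tnfrsf10b, a death receptor (0.29), and Ddit4l (0.34), and for Gria3 they were Tnfrsf10b (0.47) and Ddias (0.48). Ddit4l, Eda2r and Tnfrsf10b are in the p53 list above, which was written with earlier results of these data known, so nothing is read from this. Sec14l5 was nearest to Eda2r (0.49) and to Atp8b5 (0.52), and 2410089E03Rik to Lif, a cytokine (0.64), and Eda2r (0.66). Ddit4l had 1.30 ± 0.0541 CPM in 6-month-old controls and 12.6 ± 0.726 and 11.1 ± 1.17 CPM at days 2 and 6, beside 1.19 ± 0.233, 15.3 ± 1.71 and 14.5 ± 1.86 CPM for Atp8b5.

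Exoc4 was nearest to Tmem43, a nuclear envelope protein (0.18), and to Zak, a stress kinase (0.20), which had 13.6 and 18.1 CPM in 6-month-old controls and 24.6 and 32.0 CPM at day 2. Aatk was nearest to Sema5b, a semaphorin (0.46), and Bcl2l14 (0.52). Sema5b was at 3.97 ± 0.336 CPM in 6-month-old controls, 1.12 ± 0.147 in 1-month-old controls and 1.24 ± 0.292 and 1.09 ± 0.446 CPM at days 2 and 6 in 6-month-old mice. Rcan2 was nearest to Glul, the glutamine synthetase of pericentral hepatocytes (0.37), and Dmrt2 (0.44). Glul was at 1037 ± 6.78 CPM in 6-month-old controls and at 388 ± 46.4 and 512 ± 107 CPM at days 2 and 6, and at 1 month it was at 739 ± 82.8, 409 ± 120 and 473 ± 34.2 CPM in controls and at days 2 and 6. The likeness is a description over libraries that include the 6-month ones that chose the genes.

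The neighbours of the 8 genes on the chromosome were added after the values were seen. Of the 16 nearest tested genes on either side, 0 passed edgeR's test against control on either day at either age (unadjusted p under 0.05 for 1 and 1 at days 2 and 6 at 1 month and for 2 and 1 at 6 months, 0 called by DESeq2). At most 0.319% of all tested genes passed in any of these comparisons, so nothing particular to the neighbours is read from this count. Prcp, 223 bp upstream of Ddias on the opposite strand, had a log2 difference of 0.25 ± 0.16 at day 2 in 6-month-old mice, and Baiap2, 531 bp downstream of Aatk on the opposite strand, of 0.02 ± 0.26. Unc13b, 2288 bp upstream of Atp8b5 on the same strand, was at -0.18 ± 0.23, and Ppl, 14628 bp upstream of Sec14l5, had the highest value of the 16 at 0.70 ± 0.28. With age, Unc13b was higher in controls (1.96 ± 0.27, adjusted p = 0.00177) and Cyp39a1, a bile acid enzyme 50420 bp from Rcan2, was lower (-2.71 ± 0.34, adjusted p = 0.000776). The share of all tested genes passing between the control ages is not given here, so nothing particular to the neighbours is read from these calls. The 1 gene overlapping any of the 8 that had a count was Gm43168 within Exoc4, with 5 counts in all libraries together.

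**Figure D5:**
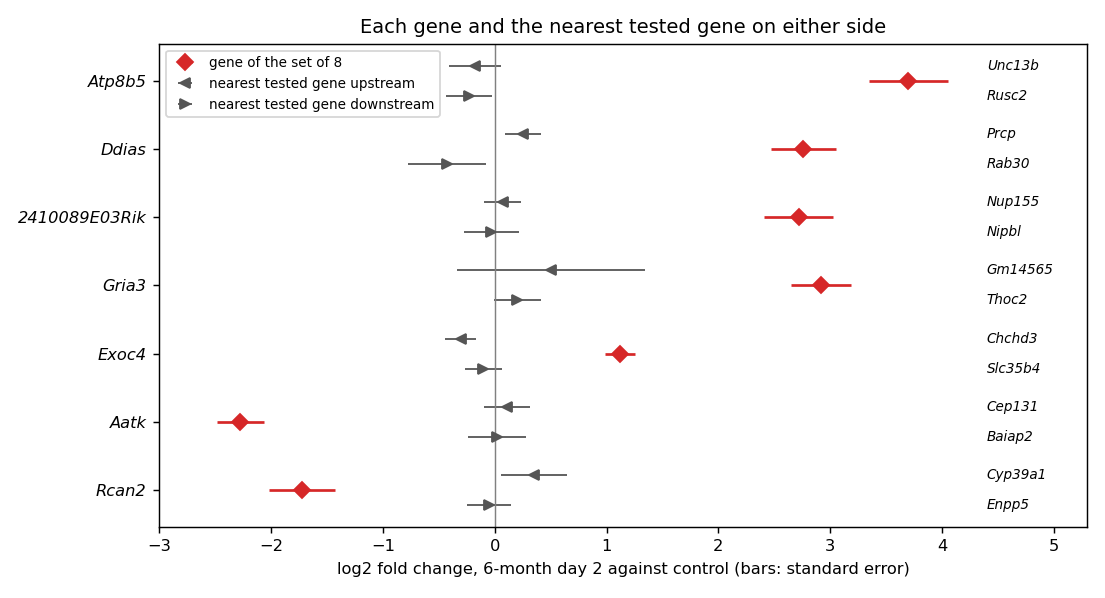
Log2 fold change at day 2 against control in 6-month-old livers, with bars of 1 standard error, for 7 of the described genes (red diamonds) and the nearest tested gene upstream and downstream of each (grey triangles, named at the right); Sec14l5 and its neighbours are left out because its controls had no counts. The neighbours shown lie from -0.42 for Rab30 to 0.50 for Gm14565, nearer to 0 than the gene beside them. The described genes were chosen for large 6-month changes, so nothing is read from this distance.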

How the data were processed

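The authors made each library (TruSeq) from pooled liver RNA, sequenced it on a NextSeq, aligned reads with TopHat2 (version 2.0.13) to the mouse genome (GRCm38, Ensembl annotation), and the gene table they deposited holds raw counts. Which program counted the reads, and whether by strand, are points not given in the sources used here. Also in the table are 16 columns of normalized counts and columns of the authors' comparisons (fold changes and adjusted p-values), which were not used. Of 47729 genes, 10 with no count entry were left out. Library totals of 19039330 to 34459774 counts limit the precision of low genes such as Sec14l5, and floors cover counting error only.

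Counts of all 16 libraries were fitted together in edgeR 4.0.16 (R 4.3.3, limma 3.58.1) with 1 mean for each of 6 groups, TMM scaling, the filterByExpr filter and the quasi-likelihood F-test, with Benjamini-Hochberg adjustment over 15684 genes and a threshold of 0.1. The SE is the log2 fold change divided by the square root of F, intervals are 95%, and prior counts were 2 for log2 CPM and 0.125 for fold changes. A control group at 0 was set to 3 counts over the group. From each list, genes that passed at 1 month were named, or else the 3 most abundant tested ones, and like genes are the 2 tested genes with official symbols (no Gm, Rik or pseudogene names) and the smallest RMS difference. A gene that this rule names is not reported here. The labels give no meaning to replicate numbers. Same-numbered libraries deviated together in 3 of 3 pairs of day 2 and day 6 at 6 months (r 0.252, 0.233 and 0.493), and in no other comparison of groups of 3 did all pairs do so (r over 0.1). The fit was tested on simulated data. Alternatives were DESeq2 1.42.0 (test and size factors), no filter, fewer libraries, a replicate block, the clock score as a covariate and leaving out libraries. The members and lists were chosen with earlier results of these data known. Figures were drawn with matplotlib 3.10.9, and tables handled with pandas 2.3.3 and numpy 2.4.6 under Python 3.11.15.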

Additional observations from a re-analysis of the deposited data

How the results depend on the processing

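In 1-month-old mice the number of the 7 testable genes that passed was 1 at day 2, 0 at day 6, 1 for the mean of both days and 0 between the days. In the same order it was 4, 2, 4 and 0 with DESeq2, 4, 2, 3 and 0 with no filter on low counts, 3, 0, 1 and 0 with a clock score covariate, 2, 1, 1 and 0 when the 3 libraries lowest in clock score were dropped, and 0 throughout with only the 8 libraries of that age, with only the groups compared or with a replicate block. Over all tested genes the numbers were 3, 0, 2 and 1, against 86, 19, 23 and 31 with DESeq2, 131, 49, 61 and 86 with no filter, 15, 0, 3 and 1 with the covariate, 7, 2, 5 and 3 without the 3 libraries, 3, 0, 2 and 0 with DESeq2 size factors, 0 throughout for the subsets, and 0, 0, 0 and 2 with the replicate block. Same-numbered libraries correlated from -0.302 to 0.588 over 36 pairs, so the numbers were not taken to pair the pools in the comparisons tested, although 11 of 16 libraries were most like one with their own number, a hint from the data. With the block, Atp8b5 had an adjusted p of 0.131 at day 2 in edgeR. Leaving out 1 library at a time, the 7 testable genes gave 0 to 3, 0 to 1, 0 to 3 and 0 calls and all genes 0 to 53, 0 to 1, 0 to 13 and 0 to 10. Signs turned only for small differences. Aatk at day 6 was -0.087 without the 3 libraries lowest in clock score and between -0.0081 and 0.26 on leaving out 1 library. Between the days, 2410089E03Rik was 0.075 with the covariate, and on leaving out 1 library 2410089E03Rik ran from -0.45 to 0.099, Gria3 from -0.41 to 0.0013 and Aatk from -0.22 to 0.12. The cause of these changes was not tested. At 6 months 50 and 39 genes passed at days 2 and 6, and 12 and 9 without control replicate 2 of that age.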
